A study of Mus musculus with 4 samples.

Results

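The insulin-like growth factor (IGF) system was followed in MC3T3-E1 cells, a mouse pre-osteoblastic line from skull that can mature into osteoblasts. It was taken as 10 genes chosen by symbol: the ligand genes Igf1 and Igf2, the receptor genes Igf1r and Igf2r, and the binding-protein genes Igfbp2 to Igfbp7. All 10 were found among the 41288 genes measured by RNA sequencing. The labels give all cells as genotype WT, grown in DMEM with 10% fetal bovine serum. There were 4 groups of 1 library each: untreated cells (control), cells under tensile strain of 2500 microstrain at 0.5 Hz for 1 h per day (strain), cells whose medium was replaced by that of the human prostate cancer line PC-3 (conditioned medium), and cells given both. There was no conditioned medium from a second cell type, so effects of PC-3 cells and of conditioned medium in general cannot be told apart. The length of treatment is not given in the sources used here.

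IGF1 and IGF2 are peptides related to insulin that act through the IGF1 receptor, a tyrosine kinase that activates the PI3 kinase and AKT pathway. The IGF2 receptor, which also carries lysosomal enzymes, takes up IGF2 and clears it. Binding proteins hold the ligands outside cells and set how much of them reaches the receptor, and proteases that cut the binding proteins release the ligands again. Bone matrix stores IGFs, and osteoblasts make both ligands and binding proteins.

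Libraries held 10007546 to 10997085 counts. With 1 library per group, no difference given here has a replicate check, and effects of batch, culture and treatment cannot be told apart. In these bulk samples, fewer cells of a type and less RNA per cell cannot be told apart either. The deposited columns carry letters only. The strain column was read from the word loading in the titles, and the conditioned-medium column by elimination. Under the opposite reading, the values given for conditioned medium against control and for strain against control would exchange, as would those for conditioned medium plus strain against strain and against conditioned medium. Of 8 osteoblast lineage markers, Col1a1 (460 to 587 RPKM), Sparc (494 to 570 RPKM), Spp1 (1223 to 3455 RPKM), Runx2 (12.3 to 16.3 RPKM) and Sp7 (1.80 to 3.32 RPKM) were present, Alpl had 25 to 32 counts, and Ibsp and Bglap had 1 to 12 counts. Both conditioned-medium libraries were the highest for Spp1 and the lowest for Sp7 and Runx2: against control, conditioned medium gave 2.82-fold higher Spp1 (2.78 to 2.87), 1.53-fold lower Sp7 (1.14 to 2.07) and 1.33-fold lower Runx2 (1.23 to 1.43). Spp1 was also higher with strain alone, at 1.91-fold over the control (1.88 to 1.94). The part of these markers in the IGF results was not tested. RPKM is the read count per kilobase of gene model, scaled to the total count of the library. Of 15 markers of blood, endothelial, epithelial, fat, muscle, cartilage and osteoclast cells, 13 had at most 13 counts in every library and 6 of these had 0. The exceptions were Ctsk, with 132 to 165 counts, and Col2a1, with 149 counts in the strain library and 35 to 42 in the others.

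The IGF system was dominated by Igfbp4. In the control library the levels per gene length ran from Igfbp4 at 373 RPKM (95% counting interval 366 to 382) through Igf1 at 78.9 (77.1 to 80.7), Igfbp6 at 71.4 (67.1 to 75.9), Igf2r at 70.5 (68.9 to 72.2), Igfbp7 at 36.1 (32.9 to 39.4), Igfbp5 at 22.1 (21.0 to 23.3) and Igf1r at 18.9 (18.2 to 19.6) to Igf2 at 1.08 (0.819 to 1.39). All intervals here are exact 95% intervals that cover counting error only. Of the neighbours in that order only Igfbp6 and Igf2r had overlapping intervals. Igfbp2 and Igfbp3 had at most 1 count in every library, so 8 members could be compared. With strain the order below Igfbp4 was Igfbp6 at 80.9, Igf2r at 72.3 and Igf1 at 67.4 RPKM, in conditioned medium Igf1 at 82.7, Igfbp6 at 72.6 and Igf2r at 68.8, and with both Igfbp6 at 77.2, Igf1 at 75.7 and Igf2r at 71.5. Igfbp7 and the genes below it stayed under these 3 in all libraries. Igfbp4 made up 74.2% of the summed RPKM of the 6 binding-protein genes in the control, 73.6% with strain, 81.8% in conditioned medium and 80.7% with both.

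**Figure D1:**
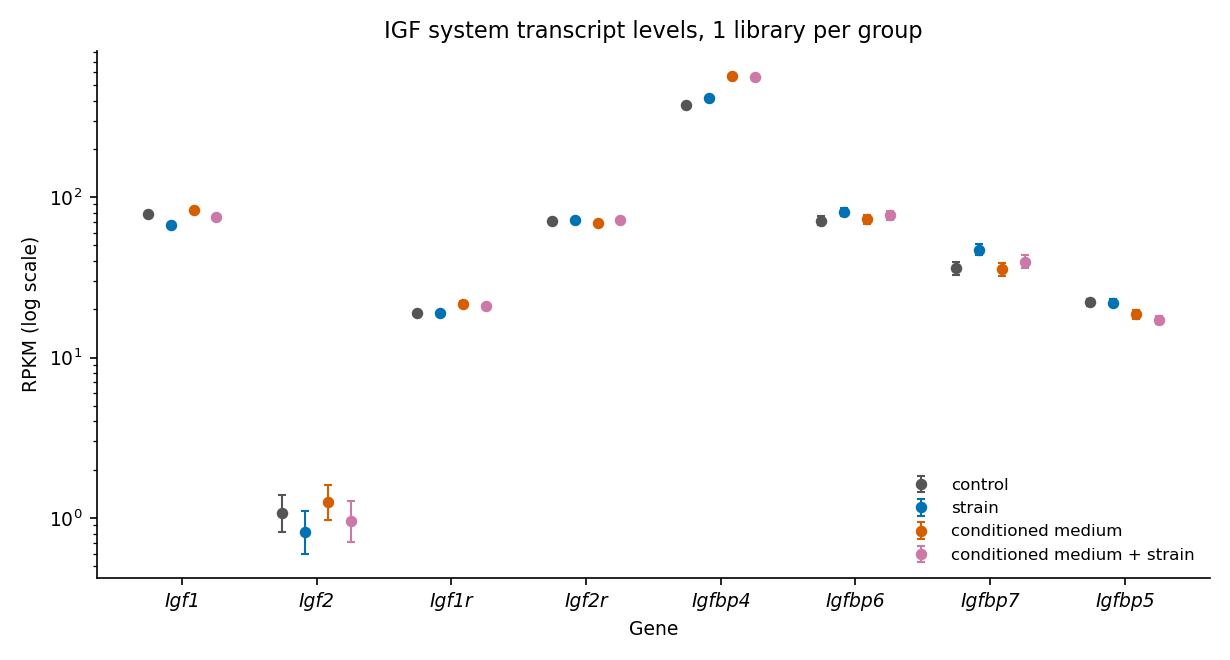
Level of the 8 measured IGF system genes in RPKM on a log axis, 1 point per library, with bars for the exact 95% Poisson interval of the count. Igfbp4 stands highest in all 4 libraries, at 373 to 570 RPKM, and Igf2 lowest, at 0.823 to 1.26 RPKM.

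Igfbp4 encodes the main binding protein that restrains IGF action in cultured bone cells. The gene lies on chromosome 11 at 99041260 to 99052646 on the plus strand (positions are as deposited, in GRCm38). It had 8498 counts (373 RPKM) in the control library, 9253 counts (417 RPKM) with strain, 12560 counts (570 RPKM) in conditioned medium and 11633 counts (562 RPKM) with both treatments. Both conditioned-medium libraries stood above both others, and the gene ranked 84th, 75th, 51st and 50th of all genes by RPKM in that order of libraries. For conditioned medium against control the fold, here the ratio of count shares, was 1.52 (1.48 to 1.57). For both treatments against control it was 1.504 (1.46 to 1.55). For both treatments against strain it was 1.35 (1.31 to 1.38).

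A gene was counted as past the size rule when its fold was at least 1.5 in either direction and the library with more held 30 counts or more. Igfbp4 met it in conditioned medium and with both treatments, each against control, and the intervals of both folds reached below 1.5. No other member met it in any of the 5 comparisons. Of all genes with 30 counts, 7.81% met it for conditioned medium against control and 8.12% for both treatments against control, so 1 of 8 members was near the background. Ratios at least as high as that of Igfbp4 were found for 3.45% and 3.23% of those genes.

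Upstream sequence was compared for the member with the highest fold in conditioned medium (Igfbp4), the member with the lowest (Igfbp5) and the member that varied least over the libraries (Igf2r). The sequences are the 250 bases before each annotated start, from RefSeq in GRCm38.p6. Capitals mark matches, on either strand, to the motifs TATAAA (the core of the TATA box), GGGCGG (the GC box), CACGTG (an E-box) and TGANTCA. The last is a loose form of the AP-1 site in which N is any base, so its matches are not all AP-1 sites. The last 2 GC boxes of Igf2r adjoin and read as 1 run. All 10 members matched the RefSeq promoter table, with 14 windows in all.
Igfbp4, chr11:99040994-99041243, plus strand: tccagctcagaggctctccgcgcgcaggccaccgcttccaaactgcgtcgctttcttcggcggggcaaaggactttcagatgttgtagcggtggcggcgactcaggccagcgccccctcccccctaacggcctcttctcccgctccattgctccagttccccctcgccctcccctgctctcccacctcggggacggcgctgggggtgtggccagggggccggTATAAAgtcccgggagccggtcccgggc
Igfbp5, chr1:72874866-72875115, minus strand: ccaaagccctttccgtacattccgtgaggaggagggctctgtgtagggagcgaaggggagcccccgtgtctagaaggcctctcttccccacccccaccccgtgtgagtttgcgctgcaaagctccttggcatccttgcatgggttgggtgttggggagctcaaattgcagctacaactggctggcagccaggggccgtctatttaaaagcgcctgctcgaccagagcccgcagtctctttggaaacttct
Igf2r, chr17:12769707-12769956, minus strand: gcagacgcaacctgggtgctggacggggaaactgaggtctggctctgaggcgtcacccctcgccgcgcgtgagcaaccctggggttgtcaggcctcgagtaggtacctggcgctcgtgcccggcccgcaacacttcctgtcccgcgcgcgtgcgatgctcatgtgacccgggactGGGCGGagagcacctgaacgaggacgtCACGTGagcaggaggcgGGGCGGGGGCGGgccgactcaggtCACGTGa
TATAAA stood 28 bases before the Igfbp4 start in RefSeq, the base after the window, which lies upstream of the deposited start at 99041260. At any position and on either strand, it was in 2 of the 14 windows and in 12.4% of all 32851 windows in the table. The other window was that of Igfbp6, where the match was on the opposite strand, 148 bases before the start, so the 2 are unlike in place and direction. GGGCGG was in 6 of the 14 windows and in 32.7% of all, with 3 matches before Igf2r. CACGTG matched 2 times before Igf2r and was in 2 of the 14 windows and 6.02% of all. TGANTCA was in 2 of the 14 and 6.75% of all, and in none of the 3 windows shown. The Igfbp5 window held none of the 4 motifs, which says only that these letters are not in it.

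Igfbp5, whose product is stored in bone matrix, had a lower value in both conditioned-medium libraries. The gene is on chromosome 1 at 72858065 to 72874865 on the minus strand. It had 1422 counts (22.1 RPKM) in the control, 1379 (21.97 RPKM) with strain, 1159 (18.6 RPKM) in conditioned medium and 1007 (17.2 RPKM) with both. It was 1.19-fold lower in conditioned medium than in the control (1.10 to 1.29) and 1.28-fold lower with both treatments than with strain (1.18 to 1.39). Strain against control gave a fold of 0.995 (0.923 to 1.07). Igfbp5 thus stood on the other side of 1 from Igfbp4 in both comparisons of conditioned medium, with both intervals away from 1.

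Igfbp7, a related protein that binds IGFs weakly, was highest with strain. The gene is on chromosome 5 at 77349240 to 77408045 on the minus strand. It had 481 counts (36.1 RPKM) in the control, 611 (47.0 RPKM) with strain, 461 (35.7 RPKM) in conditioned medium and 482 (39.7 RPKM) with both. The strain library stood above the other 3, with a fold against control of 1.30 (1.15 to 1.47). In conditioned medium the fold for strain was 1.11 (0.978 to 1.27), an interval that included 1. The other scalings tried put this fold at 1.13 and 1.14, without a recomputed interval. The summed level of the 15 markers of other cell types was also highest in the strain library, at 9.83 RPKM against 7.63 to 8.79 in the others, mainly through Col2a1, and its part in the Igfbp7 result was not tested. The last 89 bases of Igfbp7 overlap Polr2b on the opposite strand, which had 906 to 1160 counts, and Gm34648, a non-coding gene opposite an inner stretch, had 8 to 11. As the strand setting of the counting is not given in the sources used here, the Igfbp7 counts are uncertain by the reads in those overlaps.

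Igfbp6, whose product prefers IGF2, varied less. The gene is on chromosome 15 at 102144186 to 102149512 on the plus strand and had 1012 counts (71.4 RPKM) in the control, 1118 (80.9 RPKM) with strain, 997 (72.6 RPKM) in conditioned medium and 996 (77.2 RPKM) with both. Strain against control gave 1.13 (1.04 to 1.23), and the other comparisons gave intervals that included 1 with scaling to the total count. Both treatments against control gave 1.08 (0.990 to 1.18), which both other scalings put at 1.14, without a recomputed interval.

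Igfbp2 and Igfbp3, the latter the main carrier of IGFs in blood, were not detectable at this depth. Igfbp2, on chromosome 1 at 72824480 to 72852474 on the plus strand, had 1 count in conditioned medium and 0 in the other libraries. Igfbp3, on chromosome 11 at 7206086 to 7214081 on the minus strand, had 1 count with strain, 1 in conditioned medium and 0 in the rest. The limit that a count of 0 allows, 3 counts, was 0.192 to 0.211 RPKM for Igfbp2 and 0.105 to 0.115 RPKM for Igfbp3. Each of these genes lies next to another binding-protein gene: Igfbp2 ends 5590 bases from Igfbp5, and Igfbp3 ends 3539 bases from Igfbp1, a further family member outside the 10 that had 1 count in the strain library and 0 elsewhere. So the abundant Igfbp5 and the barely counted Igfbp2 are neighbours, both ending toward each other.

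Of the ligands, Igf1 was the abundant one. It lies on chromosome 10 at 87858265 to 87937047 on the plus strand and had 7418 counts (78.9 RPKM) in the control, 6181 (67.4 RPKM) with strain, 7535 (82.7 RPKM) in conditioned medium and 6478 (75.7 RPKM) with both. Each strained library stood below its unstrained counterpart. Strain against control was 1.17-fold lower (1.13 to 1.21). Adding strain to conditioned medium gave a value 1.09-fold lower (1.06 to 1.13). Conditioned medium gave 1.05 (1.01 to 1.08) without strain and 1.12 (1.08 to 1.16) with it. The antisense gene Igf1os, which overlaps Igf1, had 12 to 29 counts.

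Igf2, a major growth factor before birth, was the lowest of the 8 measured members. It is on chromosome 7 at 142650768 to 142666816 on the minus strand and had 59 counts (1.08 RPKM) in the control, 44 (0.823 RPKM) with strain, 67 (1.26 RPKM) in conditioned medium and 48 (0.962 RPKM) with both. Both strained libraries stood below both others. All 5 folds of the comparisons above, from 0.763 to 1.17, had intervals that included 1. Its highest library, conditioned medium, was 1.53 times its lowest, strain (1.03 to 2.29), a pair picked by its values and not among those comparisons. Igf1 stood at 65.6 to 82.0 times the RPKM of Igf2 over the 4 libraries. H19, the imprinted non-coding RNA beside Igf2, had 1 count in the control and 0 elsewhere, and Igf2os and Mir483, both overlapping Igf2, had 0 or 1.

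The receptors moved little. Igf1r, on chromosome 7 at 67951833 to 68233668 on the plus strand, had 2640 counts (18.9 RPKM) in the control, 2573 (18.9 RPKM) with strain, 2934 (21.7 RPKM) in conditioned medium and 2658 (20.9 RPKM) with both. Both conditioned-medium libraries lay above both others, at 1.15-fold (1.09 to 1.21) without strain and 1.11-fold (1.05 to 1.17) with strain. By level, Igfbp5 stood above Igf1r in the control and strain libraries and below it in the conditioned-medium libraries, without overlap of their intervals in any of the 4.

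Igf2r, on chromosome 17 at 12682406 to 12769706 on the minus strand, varied least: 6923 counts (70.5 RPKM) in the control, 6918 (72.3 RPKM) with strain, 6548 (68.8 RPKM) in conditioned medium and 6393 (71.5 RPKM) with both. Its highest library, strain, was 1.05 times its lowest, conditioned medium (1.02 to 1.09). Airn, the imprinted antisense RNA that silences Igf2r on the paternal allele in mouse, overlaps it and had 58 to 71 counts. Igf2r stood at 3.17 to 3.82 times the RPKM of Igf1r.

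**Figure D2:**
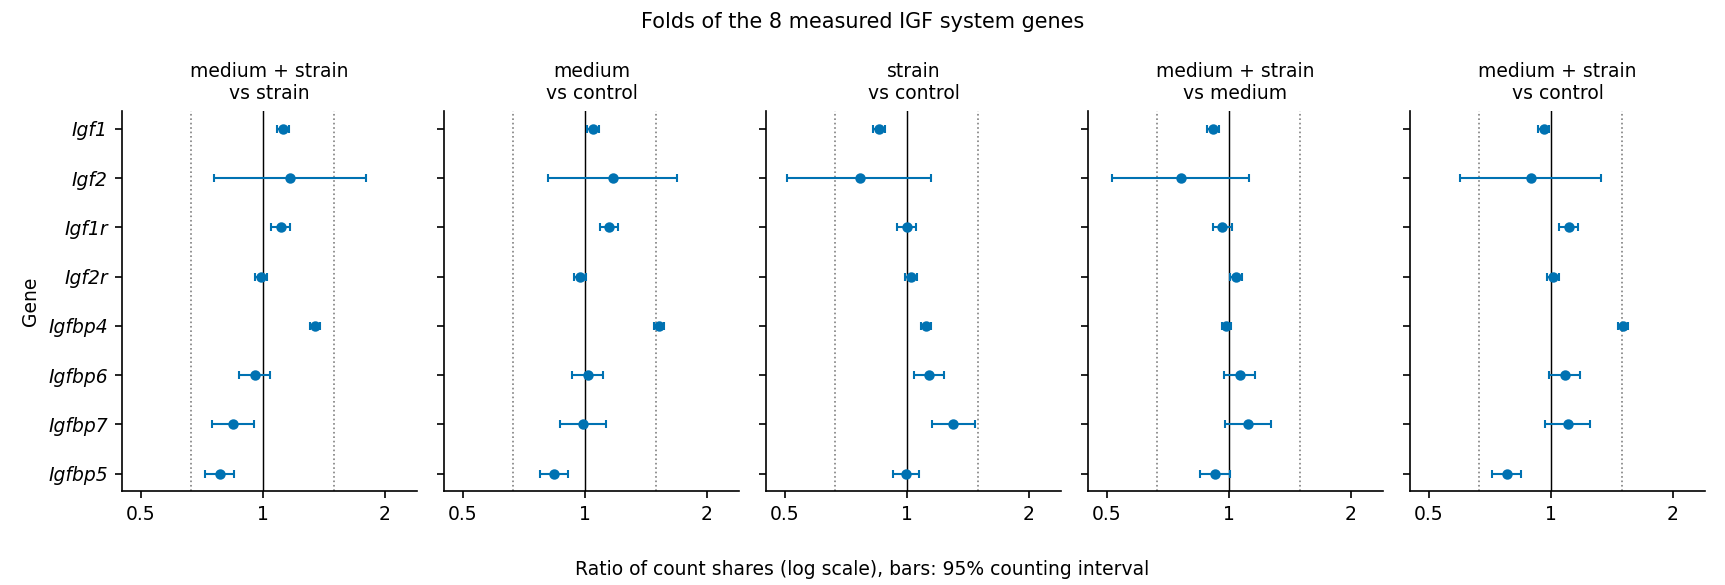
Folds (ratio of count shares, log axis) of the 8 measured members in the 5 comparisons, with bars for the exact 95% counting interval and dotted lines at the 1.5-fold rule. Igfbp4 lies at 1.35 to 1.52 where conditioned medium, with or without strain, is set against strain or control, and at 0.987 where strain is added to conditioned medium, which other scalings put above 1.

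Read over the members, the comparison that the series title names, conditioned medium plus strain against strain, had 3 of 8 intervals above 1 (Igf1, Igf1r and Igfbp4) and 2 below 1 (Igfbp5 and Igfbp7). Conditioned medium against control had 3 above 1, of the same 3 genes, and Igfbp5 below. Of all genes with 30 counts, 11.4% had an interval above 1 and 19.9% below in the first comparison, 31.2% in all, and 13.6% above and 21.7% below in the second, 35.3% in all. Most members had more counts than most genes, which narrows their intervals, so the shares are not on the same footing. The members' median log2 ratio was 0.07 and 0.05, against -0.04 and -0.04 over all genes with 30 counts. None of the 8 met the size rule for conditioned medium plus strain against strain, where 7.25% of all genes did.

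Strain against control had intervals above 1 for Igfbp4 at 1.12 (1.08 to 1.15), Igfbp6 and Igfbp7, and below 1 for Igf1, where 9.72% of all genes had an interval above 1 and 16.1% below, 25.9% in all. The members' median log2 ratio was 0.02 and that of all genes -0.03. None met the size rule, which 3.89% of all genes met. In conditioned medium, strain left Igf2r above 1, at 1.04 (1.0 to 1.08), and Igf1 below, where 3.53% of all genes lay above and 10.4% below, 13.9% in all, and none met the size rule, which 2.06% of all genes met. Igfbp4 there had a fold of 0.987 (0.962 to 1.01), and above 1 under both other scalings tried. For both treatments against control, Igfbp4 and Igf1r had intervals above 1 and Igf1 and Igfbp5 below, where 11.2% of all genes lay above and 26% below, 37.2% in all. The Igf1 value, 1.04-fold lower (1.01 to 1.08), became 1.01 times the control under both other scalings. Both raised all folds of this comparison. Igf2r went from 1.01 (0.981 to 1.05) to 1.06 and 1.07, above its interval. Igfbp6 went from 1.08 to 1.14 and Igfbp7 from 1.10 to 1.16 under both. Intervals were not recomputed, so the list of members off 1 holds for scaling to the total count only.

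**Figure D3:**
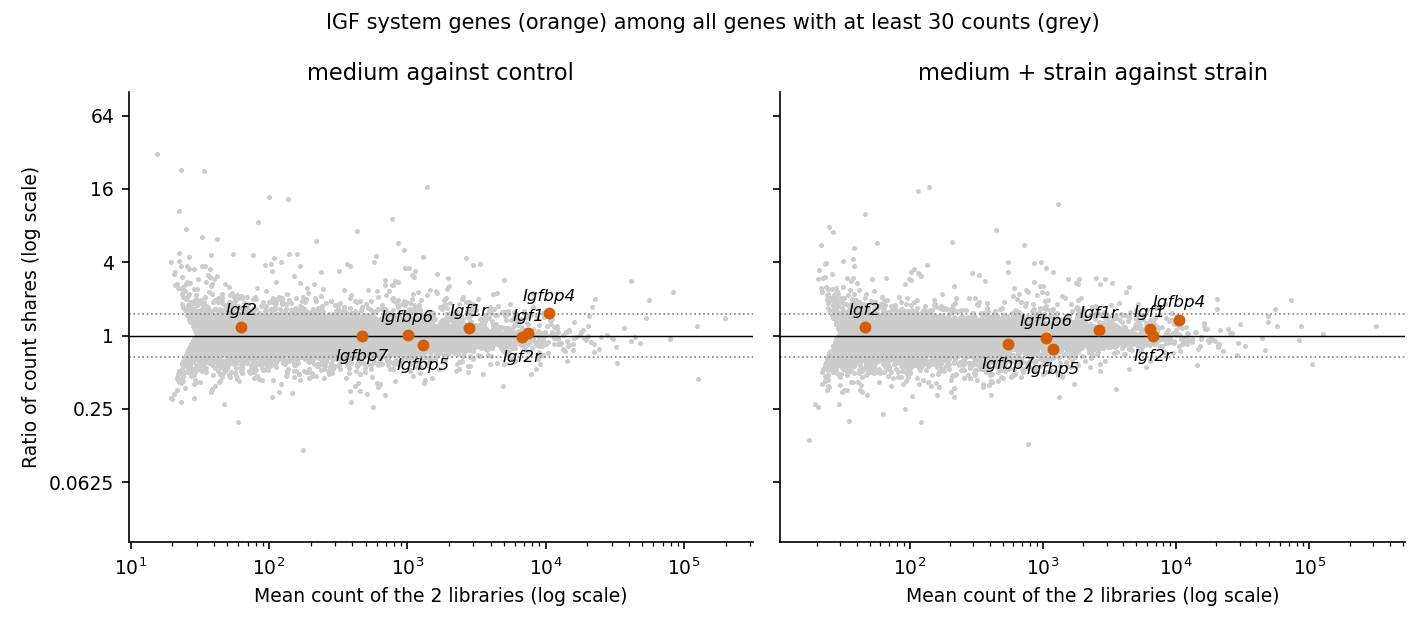
Ratio of count shares against mean count, both on log axes, for the 12069 and 11940 genes that reached 30 counts in one of the libraries (grey) and the 8 members (orange), in conditioned medium against control (left) and conditioned medium plus strain against strain (right). Dotted lines mark 1.5-fold either way, and Igfbp4 is the only member to reach one, in the left panel.

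Whether conditioned medium acted alike with and without strain was read from the ratio of its 2 folds, which does not depend on how the single-treatment columns are assigned. For Igfbp4 the fold with strain was 0.883 times that without (0.850 to 0.918). For Igf1 it was 1.07 times (1.02 to 1.12). The other 6 ratios lay between 0.855 for Igfbp7 (0.715 to 1.02) and 1.01 for Igf2r (0.967 to 1.06), all with intervals that included 1. Igf2 had the widest, 0.998 (0.562 to 1.77). The share of all genes whose ratio has an interval off 1 was not computed, so the Igfbp4 and Igf1 ratios have no background beside them.

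The wider IGF pathway was a list of 50 genes, all in the table, of which 37 or 38 had 30 counts in a comparison. For conditioned medium plus strain against strain, 2 of 37 met the size rule upward and 0 downward, against 2.94% and 4.31% of all genes. For conditioned medium against control, 3 of 38 met it upward and 1 downward, against 3.67% and 4.13%. For strain against control 0 of 37 met it upward and 1 downward, against 1.85% and 2.04%. Adding strain to conditioned medium gave 0 of 38 in either direction, against 0.823% and 1.23%. For both against control 3 of 38 met it upward and 1 downward, against 3.28% and 4.84%. These shares are small counts near the background. Folds of single pathway genes were not computed under the other scalings, so these counts hold for scaling to the total count only. The median log2 ratio of the list was 0.02 and -0.03 in the comparisons of conditioned medium, -0.08 and -0.03 in those of strain and -0.07 for both treatments against control. For all genes with 30 counts it was -0.04 and -0.04, -0.03 and -0.03, and -0.07 in the same order.

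Among proteases that cut binding proteins, Htra1, a secreted serine protease known to cut IGFBP5, had 2029 counts (90.5 RPKM) in the control, 2068 (94.6 RPKM) with strain, 2873 (132 RPKM) in conditioned medium and 2933 (144 RPKM) with both. Its conditioned-medium libraries stood above both others, 1.52-fold above strain (1.44 to 1.61) when strained and 1.46-fold above control (1.38 to 1.55) when not. Adam12, a membrane protease that can cut IGFBP3 and IGFBP5, had 262 counts in the control, 264 with strain, 383 in conditioned medium and 332 with both, with 1.51-fold (1.29 to 1.77) for conditioned medium against control. Pappa, the protease that cuts IGFBP4, had 2.68 to 2.98 RPKM and all its intervals included 1. Its relative Pappa2, which cuts IGFBP3 and IGFBP5, was far higher, at 88.9 RPKM in the control, 68.5 with strain, 85.7 in conditioned medium and 84.4 with both. The strain library was the low one, 1.30-fold below the control (1.26 to 1.33). Stc1 and Stc2, inhibitors of pappalysins, had 0 or 1 count in every library.

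Downstream of the receptor, Irs1, the docking protein that passes the signal to PI3 kinase, had 3422 counts (34.0 RPKM) in the control, 2582 (26.3 RPKM) with strain, 2203 (22.6 RPKM) in conditioned medium and 2053 (22.4 RPKM) with both. The control stood above the other 3, by 1.51-fold over conditioned medium (1.43 to 1.59), 1.52-fold over both (1.44 to 1.60) and 1.29-fold over strain (1.23 to 1.36). The first 2 met the rule downward, with intervals that reached below 1.5. Both other scalings raised the median log2 ratio of all genes to the control, by 0.04 in conditioned medium and 0.07 with both. Such a shift would bring these 2 Irs1 folds under 1.5, and the Htra1 fold of 1.46 in conditioned medium over it. Irs2, its relative, had 173 counts in the control, 142 with strain, 145 in conditioned medium and 110 with both, and was 1.43-fold lower with both than in the control (1.12 to 1.83). Grb10, an imprinted adaptor that restrains IGF1 receptor signalling, had 57.4 to 66.6 RPKM, highest in the control. Grb14, an adaptor of the same family, met the rule upward on 51 and 35 counts in the conditioned-medium libraries against 23 in the control, at 2.29-fold (1.37 to 3.92) and 1.67-fold (0.961 to 2.96). Insr, the insulin receptor, had 8.03 to 9.40 RPKM and was 1.17-fold higher (1.06 to 1.29) with both treatments than with strain.

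Pdk1, at 8.79 RPKM in the control, 8.31 with strain, 17.1 in conditioned medium and 15.2 with both, met the rule upward in each of the 3 comparisons of conditioned medium with a library without it. In the table this symbol is pyruvate dehydrogenase kinase 1, a mitochondrial enzyme that turns glucose use away from respiration. The kinase of the IGF pathway that shares the short name is Pdpk1, which had 13.5 to 14.8 RPKM. Without Pdk1 the upward counts above for those 3 comparisons would each be lower by 1. Mest, an imprinted gene, met the rule downward with strain on 25 against 41 counts, 1.60-fold lower with an interval that included 1 (0.949 to 2.74).

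**Figure D4:**
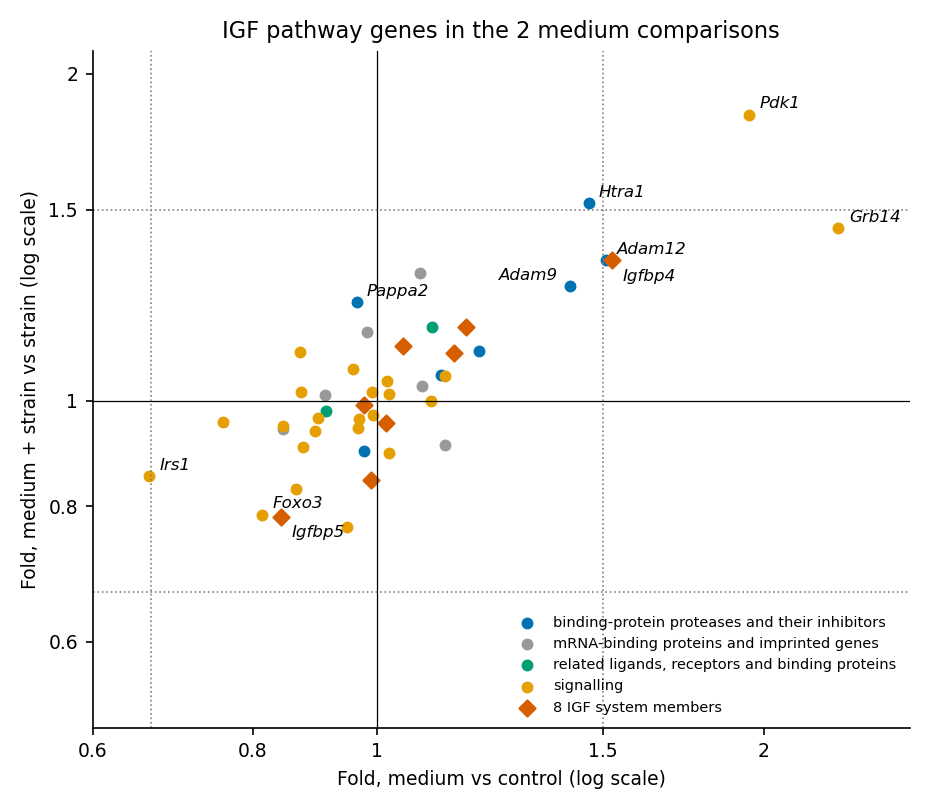
Fold for conditioned medium against control (x axis) and for conditioned medium plus strain against strain (y axis), both log axes, for pathway genes with at least 30 counts in a library (circles, coloured by group) and the 8 members (diamonds). The axes share no library. Igfbp4 lies beside Adam12, at 1.52 and 1.35 against 1.51 and 1.35, and Igfbp5 at 0.841 and 0.782.

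Genes whose pattern over the 4 libraries was most like that of Igfbp4 were found among 9526 genes with at least 100 counts in every library, by the Euclidean distance between their 3 log2 ratios to the control. The nearest were Zfp775, a zinc finger gene (distance 0.03), Flot1, which encodes the membrane scaffold flotillin 1 (0.04), Tspan11, a tetraspanin gene (0.06), Stambpl1, a deubiquitinase gene (0.06), and Lamb1, the laminin beta 1 chain gene (0.07). Flot1 stood at 80.5 RPKM in the control, 90.7 with strain, 121 in conditioned medium and 118 with both. Lamb1 stood at 61.8, 70.8, 95.9 and 96.1 RPKM in the same order. Likeness over 4 libraries is a description and carries no test.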

How the data were processed

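RNA of 4 MC3T3-E1 cultures was extracted with Trizol and made into directional NEBNext Ultra libraries, per the labels' protocols. Reads were aligned with HISAT2 (version not stated) to a build named mm9, per the submitters' processing notes. The deposited positions match GRCm38.p6 in chromosome and start for 71.8% of 40033 genes and for 8 of the 10 members, and are read as GRCm38. For each gene and library the deposited table holds a read count (whole numbers) and its RPKM, per the file headers. No counting tool or strand setting is named in the sources used here. The gene length that the authors deposited (unit other, in bases) and the counts gave back the RPKM to a relative difference of 5.05e-06 at most.

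Folds are ratios of count shares, with exact Clopper-Pearson 95% intervals of a gene's counts in 1 library out of both. Intervals of levels are exact Poisson, and those of the ratio of 2 folds exact conditional. PCR copies are not independent molecules, so intervals and floors (3 counts) cover counting error only. No p-value was computed. Members, lists and the 1.5-fold and 30-count rule were chosen with earlier results of these data known. By rule, the text names all 10 members, pathway genes past the size rule, 8 further pathway genes whatever their values, genes overlapping a member, and the 5 genes nearest in pattern to the member that varied most among those with at least 100 counts. Igfbp1, Pappa2, Pdpk1 and H19, and Adam9 and Foxo3 in the pathway plot, are list genes chosen after their values were seen. Alternatives were TMM scaling (edgeR 4.0.16), median-of-ratios scaling (DESeq2 1.42.0), other count minimums, a 2-fold threshold, and log2(RPKM + 1) and log2(RPKM + 0.1). Python 3.11.15 and scipy 1.17.1 were used, and the fold and its rule were tested on simulated data.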

Additional observations from a re-analysis of the deposited data

Results flagged for a closer look

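The fold of Igfbp4 in conditioned medium differed between strained and unstrained cells beyond counting error: the ratio of the 2 folds was 0.883 (0.850 to 0.918), with folds of 1.35 and 1.52. That of Igf1 also did, with a ratio of 1.07 (1.02 to 1.12) and folds of 1.12 and 1.05. Each group was 1 library, so neither difference was tested against the spread between cultures. The share of all genes with such a difference was not computed, so it is not known whether these members stand out.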

How the results depend on the processing

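No paired analysis was possible because each group had 1 library. Among the members, Igfbp4 met the 1.5-fold rule under both scalings, at every count minimum and on both log2 scales, with folds of 1.52 to 1.57 for conditioned medium against control and 1.503 to 1.58 for both treatments against control. At a 2-fold threshold, 0 members met it in these comparisons. With at least 1 count in place of 30, members at 0 to 1 count entered, and the number past the rule became 1 for conditioned medium plus strain against strain, 3 for conditioned medium against control, 1 for strain against control and 2 for conditioned medium plus strain against conditioned medium. Of the 40 member folds, 7 changed sides of 1 under another scaling, all between 0.960 and 1.03: Igf2r and Igfbp7 in conditioned medium against control, Igf1r and Igfbp5 in strain against control, Igf2r in both against strain, Igfbp4 in both against conditioned medium, and Igf1 in both against control, which went from 0.960 (0.928 to 0.992) to 1.01. All 32 alternative values of the ratio of folds stayed within the counting interval, at 0.869 to 0.884 for Igfbp4 and 1.05 to 1.07 for Igf1. Over all genes, in the order conditioned medium plus strain against strain, conditioned medium against control, strain against control, conditioned medium plus strain against conditioned medium, and both against control, 866, 942, 468, 245 and 977 genes met the rule. These became 1752, 1886, 1406, 1077 and 1954 with at least 10 counts, 8990, 9046, 8564, 8327 and 9165 with at least 1, 490, 552, 148, 45 and 559 with at least 100, 222, 256, 80, 45 and 273 at 2-fold, and 463, 514, 130, 66 and 499 on log2(RPKM + 1). With TMM, the share of these genes that was higher moved from 47.6% to 58.2% for strain against control, from 47.0% to 54.8% for conditioned medium against control and from 40.4% to 53.6% for both against control, where median-of-ratios scaling gave 54.2%. Depth limits Igf2, Igfbp2 and Igfbp3.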
